A study of Mus musculus with 3 samples.

Results

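The MAP kinase cascade kinases are the protein kinases that pass a signal down the mitogen-activated protein kinase (MAPK) relay. They were taken as all protein-coding genes whose symbol is Mapk, Map2k, Map3k or Map4k followed by digits alone, or Mapkapk followed by a digit. The rule found 46 of the 55536 annotated genes, or of the 22028 protein-coding genes: 13 MAPKs, 7 MAP2Ks, 18 MAP3Ks, 5 MAP4Ks and 3 MAPK-activated kinases. It used symbols and no measured value.

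Total RNA depleted of ribosomal RNA was sequenced from cytosol of bone marrow-derived macrophages (BMDM) of the mouse strain C57BL/6J. All 3 libraries belong to 1 group: cells were exposed to 100 ng/ml of Lipid A, the TLR4-binding part of lipopolysaccharide, for 12 h, kept without it for 12 h, and exposed again to 100 ng/ml for 90 min. Cells without Lipid A, or with 1 exposure, were not analysed here, so the values are levels in re-exposed cells and not responses. The labels number the libraries as biological replicates 1 to 3 but give them the same donor record, and list age and sex as not collected; p-values therefore measure only the spread between these samples, which may be technical. The RNA is bulk RNA, in which fewer cells that express a gene and less RNA per cell cannot be told apart.

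The cascade runs from MAP4Ks and small GTPases to MAP3Ks, which phosphorylate MAP2Ks, which in turn phosphorylate a threonine and a tyrosine in the activation loop of a MAPK. Below TLR4, TRAF6 and the TAB proteins engage the MAP3K TAK1 (Map3k7), which feeds p38 and JNK, while the MAP3K TPL2 (Map3k8) is freed from the NF-kappaB precursor p105 and feeds the MEK and ERK kinases. The active p38 kinase switches on MK2 (Mapkapk2), which acts on RNA-binding proteins that decide how long cytokine mRNAs last and how well they are translated.

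The activation loops are shown first because they tell the branches apart. Each stretch is coding sequence on the transcript strand from the GENCODE M21 transcripts (mm10), 36 bases long, with the 3 codons of the phosphorylation motif in capitals. The motif reads TEY in the ERKs, TPY in the JNKs, TGY in p38 alpha, and SEG, with a single phosphate acceptor, in ERK3 (Mapk6).
Mapk3 (ERK1) at chr7:126763446-126763481, plus strand: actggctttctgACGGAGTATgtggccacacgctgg
Mapk7 (ERK5) at chr11:61491407-61491442, minus strand: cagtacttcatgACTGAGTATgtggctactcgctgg
Mapk8 (JNK1) at chr14:33392988-33393023, minus strand: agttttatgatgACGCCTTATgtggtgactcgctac
Mapk9 (JNK2) at chr11:49872818-49872853, plus strand: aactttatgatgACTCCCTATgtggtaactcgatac
Mapk14 (p38 alpha) at chr17:28728387-28728422, plus strand: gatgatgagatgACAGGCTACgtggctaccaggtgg
Mapk6 (ERK3) at chr9:75395622-75397581, minus strand, across a splice junction: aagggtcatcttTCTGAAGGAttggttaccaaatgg
The motif lies at codons 183 to 185 in Mapk8 and Mapk9, 203 to 205 in Mapk3, 219 to 221 in Mapk7, 180 to 182 in Mapk14 and 189 to 191 in Mapk6. Stretches are printed only for MAPKs that were detected in the RNA, so the detection of these 6 is not a result. The motif of Mapk11, which was not detected, was also read, as TGY, and is not printed.

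A gene was called detected at 1 TPM (a transcript level corrected for length) or more in all 3 libraries. By that rule 31 of the 46 members were detected, beside 40.1% of all protein-coding genes. They comprised 7 of 13 MAPKs, 6 of 7 MAP2Ks, 11 of 18 MAP3Ks, 4 of 5 MAP4Ks and 3 of 3 MAPK-activated kinases. The median level of the detected members was 10.8 TPM, against 8.51 TPM over all detected protein-coding genes, and 16 members had a mean of 10 TPM or more. A further 3 members reached 1 TPM in some libraries only, and 12 lay under it in all 3.

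**Figure D1:**
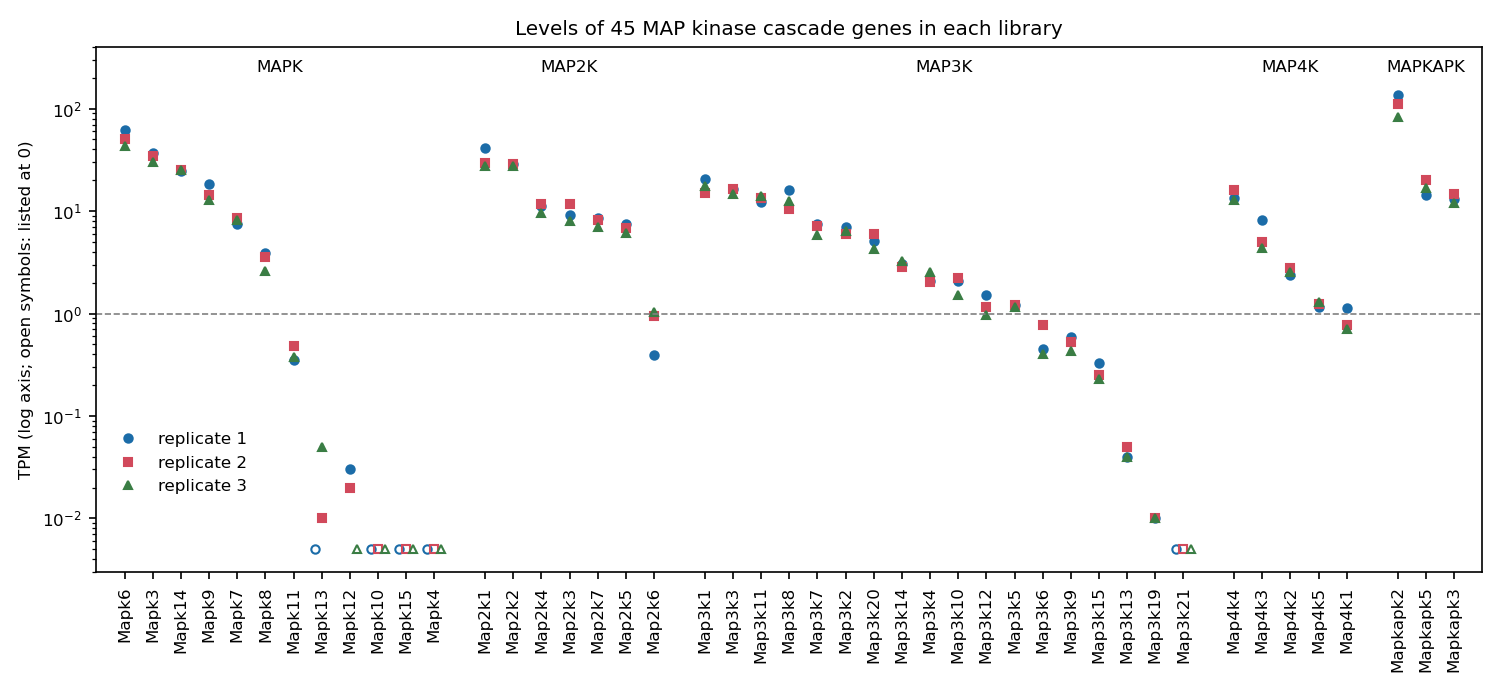
TPM (log axis) of 45 members in the 3 libraries, grouped by step of the cascade and ordered by mean; open symbols stand for values listed at 0 and are drawn at an arbitrary height, and the dashed line marks 1 TPM. Mapkapk2 is the highest member, and within each of the MAPK and MAP3K steps the levels run from over 10 TPM down to 0.

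Libraries held 40637857, 70407572 and 49678390 expected counts on annotated genes in replicates 1, 2 and 3, and the members took 0.254, 0.248 and 0.234% of them. Detected members had between 243 and 34543 counts in a library. All 10 macrophage markers were detected. No marker of neutrophils, T and NK cells, B cells, dendritic cells, mast cells or stromal and endothelial cells was detected at 1 TPM. Each of these other lists summed to at most 1.11 TPM in any library. Rescaling to protein-coding genes multiplied TPM by 3.02, 3.38 and 3.58 in replicates 1, 2 and 3. On that scale the endothelial marker Pecam1 (500 counts in total) and the neutrophil marker Ngp (156 counts) passed 1 in all 3 libraries. Protein-coding genes took 33.2, 29.6 and 28.0% of TPM in replicates 1, 2 and 3, most of the rest being 7SL RNA, so TPM values shift together between libraries.

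Among the MAPKs themselves the highest was Mapk6 (ENSMUSG00000042688.16, chr9:75369062-75410005), which encodes ERK3, an atypical and short-lived kinase. It stood at 62.0, 50.1 and 42.7 TPM in replicates 1, 2 and 3 (51.6 ± 9.73, SD, n = 3). Mapk3 (ENSMUSG00000063065.13, chr7:126759601-126765819) stood at 36.9, 34.3 and 30.0 TPM (33.7 ± 3.49). Every library of Mapk6 lay above every library of Mapk3.

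Mapk14 (ENSMUSG00000053436.15, chr17:28691329-28748406), the p38 isoform through which most inflammatory p38 signalling runs, stood at 24.4, 25.4 and 24.9 TPM (24.9 ± 0.520), below every library of Mapk3. Mapk9 (ENSMUSG00000020366.18, chr11:49846751-49886421) stood at 18.6, 14.3 and 12.9 TPM (15.3 ± 2.96) and Mapk8 (ENSMUSG00000021936.14, chr14:33377898-33447158) at 3.88, 3.6 and 2.62 TPM (3.37 ± 0.662). JNK2 transcripts thus outnumbered JNK1 transcripts in every library. Mapk7, the kinase that MEK5 activates and that carries a long C-terminal tail with a transactivation domain, had 8.13 ± 0.533 TPM; its exons overlap those of Mfap4 on the opposite strand, and no label or header states if reads were counted by strand.

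Of the MAPKs that were not detected, Mapk11 (p38 beta) was low but clearly above 0. It had 0.403 ± 0.0681 TPM, with 49, 128 and 74 counts in replicates 1, 2 and 3. After rescaling to protein-coding genes its mean was 1.35 ± 0.284. The others were near or at 0. Mapk13 (p38 delta) had 0, 1 and 4 counts and Mapk12 (p38 gamma) 1, 2 and 0 counts in replicates 1, 2 and 3. Mapk10 (JNK3, known mostly from neurons) had 1, 0 and 0 counts and Mapk4 (ERK4, the closest relative of ERK3) 0, 1 and 0 counts. No read was assigned to Mapk15 (ERK7), with 0, 0 and 0 counts; a limit of 3 counts, which covers counting error only, puts it at no more than 0.0499 TPM. Mapk13 starts 20890 bases downstream of Mapk14 on the same strand, and Mapk12 lies 1782 bases from Mapk11, in both cases with 0 annotated genes between them, so genes that sit side by side in the genome stood at very different levels in the first case and at low levels in both members of the second.

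As shares of the summed TPM of the 13 MAPKs, ERK3/4 took 31.4 ± 2.74%, p38 kinases 15.6 ± 1.84% and JNKs 11.3 ± 1.02% (n = 3 each). ERK3/4 took 34.5, 30.2 and 29.4%, p38 kinases 13.8, 15.6 and 17.5%, and JNKs 12.5, 10.8 and 10.7% in replicates 1, 2 and 3. The p38 share was above the JNK share in each library, by least in replicate 1. Within families, Mapk14 made up 98.3 ± 0.218% of p38 TPM and Mapk9 81.9 ± 1.76% of JNK TPM. The ERK3/4 share came from Mapk6 alone, since Mapk4 was listed at 0 TPM in each library. It was not among the planned shares and was not run under other settings.

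The MAP2Ks, the dual-specificity kinases above the MAPKs, were led by the MEK pair that phosphorylates the classical ERKs. Map2k1 (MEK1; ENSMUSG00000004936.8, chr9:64185770-64253631) stood at 40.9, 29.3 and 27.5 TPM (32.6 ± 7.26). Map2k2 (MEK2; ENSMUSG00000035027.18, chr10:81105915-81133975) stood at 28.7, 29.0 and 27.3 TPM (28.3 ± 0.890). The libraries of the MEKs overlap, and the gap between them came from replicate 1.

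The kinases above JNK were next. Map2k4 (MKK4; ENSMUSG00000033352.11, chr11:65688243-65788297), which can act on both JNK and p38, stood at 11.2, 11.6 and 9.58 TPM (10.8 ± 1.08), and Map2k7 (MKK7), which is specific for JNK, at 8.61, 8.23 and 7.03 TPM (7.96 ± 0.825). Map2k4 was the higher in each library. The exons of Map2k7 overlap those of the predicted gene Gm49320 on the same strand, so its level is uncertain.

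The p38 kinases have a pair of dedicated activators, and they were unequal here. Map2k3 (MKK3) stood at 9.26, 11.7 and 8.07 TPM (9.66 ± 1.83) and Map2k6 (MKK6) at 0.39, 0.94 and 1.03 TPM (0.787 ± 0.346). Map2k6 passed 1 TPM in replicate 3 only, and its lowest library was replicate 1, where it had 43 counts against 199 and 167. After rescaling to protein-coding genes its mean was 2.68 ± 1.33. Map2k5 (MEK5), the activator of ERK5, had 6.77 ± 0.687 TPM.

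The MAP3Ks are the most numerous step and had no dominant member. Map3k1 (MEKK1; ENSMUSG00000021754.17, chr13:111746428-111808993), a large kinase that also carries a ubiquitin ligase domain, stood at 20.4, 15.1 and 17.6 TPM (17.7 ± 2.70) and took 19.8 ± 1.94% of the summed TPM of the step. Map3k3 (MEKK3; ENSMUSG00000020700.11, chr11:106084613-106155446) stood at 16.4, 16.3 and 14.8 TPM (15.9 ± 0.911). Map3k11 (MLK3; ENSMUSG00000004054.9, chr19:5688742-5702865) stood at 12.2, 13.5 and 13.9 TPM (13.2 ± 0.877); its exons overlap Pcnx3 and an antisense RNA on the opposite strand. The ranges of Map3k1 and Map3k3 overlap.

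Map3k8 and Map3k7, a pair of MAP3Ks known to act below TLR4, were both detected. Map3k8 (TPL2; ENSMUSG00000024235.11) stood at 15.9, 10.6 and 12.5 TPM (13.0 ± 2.71) and Map3k7 (TAK1; ENSMUSG00000028284.13, chr4:31964097-32023467) at 7.54, 7.09 and 5.78 TPM (6.80 ± 0.914). The TPL2 transcript was above the TAK1 transcript in each library on this scale. Map3k7 was the 1 detected member whose level differed by more than 1.25 times between the gene table and the second transcript table, 1.43 times higher in the latter after rescaling both to protein-coding genes.

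The other detected MAP3Ks were lower. Map3k2 (MEKK2) had 6.43 ± 0.539 TPM and Map3k20 (ZAK), whose long form senses stalled and collided ribosomes, 5.14 ± 0.825 TPM. Map3k14 (NIK), the kinase of non-canonical NF-kappaB signalling, had 3.04 ± 0.200 TPM, Map3k4 (MEKK4) 2.21 ± 0.275 TPM, Map3k10 (MLK2) 1.94 ± 0.363 TPM and Map3k5 (ASK1), which responds to oxidative stress, 1.20 ± 0.0321 TPM. Map3k14 shares exon sequence with a noncoding gene on its own strand and Map3k10 with Ttc9b on the other strand, so both levels are uncertain.

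Map3k12 (DLK, known for its part in axon injury) stood at 1.51, 1.16 and 0.97 TPM (1.21 ± 0.274) and missed the threshold in replicate 3. It shares 1573 bases of exon with Pcbp2, which lies on the opposite strand, and is uncertain for that reason. Under 1 TPM in every library were Map3k6 (ASK2) at 0.540 ± 0.201, Map3k9 (MLK1) at 0.517 ± 0.0808, Map3k15 (ASK3) at 0.270 ± 0.0529 and Map3k13 (LZK) at 0.0433 ± 0.00577 TPM. Map3k15 overlaps Pdha1 on the opposite strand and Map3k13 a lincRNA on its own strand. Map3k19 had 3, 5 and 2 counts and Map3k21 (MLK4) 0, 1 and 0 counts, close to the limit of 3 counts in each library.

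Of the MAP4Ks, the Ste20-type kinases at the head of the relay, Map4k4 (HGK; ENSMUSG00000026074.15, chr1:39900913-40026310) was the highest. It stood at 13.6, 16.2 and 12.9 TPM (14.2 ± 1.74) and took 57.6 ± 5.70% of the step. Map4k3 (GLK; ENSMUSG00000024242.15, chr17:80580512-80728485), which is also known from amino acid sensing, stood at 8.22, 4.97 and 4.35 TPM (5.85 ± 2.08), with replicate 1 well above the other 2 libraries. Map4k2 stood at 2.37, 2.81 and 2.55 TPM (2.58 ± 0.221), and Map4k5 had 1.23 ± 0.0702 TPM. Map4k1 (HPK1), known mainly as a brake on lymphocyte receptor signalling, stood at 1.12, 0.78 and 0.70 TPM (0.867 ± 0.223) and passed 1 TPM in replicate 1 only. Map4k2, Map4k3 and Map4k5 overlap exons of other genes on the opposite strand.

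The highest of all members lay at the end of the relay. Mapkapk2 (MK2; ENSMUSG00000016528.10, chr1:131053700-131097826) stood at 137, 111 and 82.3 TPM (110.1 ± 27.4) and took 77.8 ± 4.90% of its step. Mapkapk5 (MK5, a kinase that ERK3 and ERK4 bind) stood at 14.3, 20.0 and 17.0 TPM (17.1 ± 2.86), but shares exon sequence with Adam1a on the same strand and is uncertain. Mapkapk3 (MK3), the closest relative of MK2, stood at 13.1, 14.7 and 12.0 TPM (13.3 ± 1.39). Every library of Mapkapk2 was above every library of all the other members.

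Ratios taken within a library remove the shift of TPM between libraries. Log2 ratios of TPM were Mapk14/Mapk11 5.96 ± 0.21, Map4k4/Map4k1 4.06 ± 0.41, Map2k3/Map2k6 3.72 ± 0.80, Mapkapk2/Mapkapk3 3.03 ± 0.32 and Mapk9/Mapk8 2.18 ± 0.17 (n = 3). All 5 ratios were positive in all 3 libraries. No ratio is given for Mapk14/Mapk13, since Mapk13 had 0, 1 and 4 counts.

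The other 3 ratios were small. Map3k8/Map3k7 was 0.92 ± 0.30 and Map2k4/Map2k7 0.44 ± 0.06, positive in each library. Map2k1/Map2k2 was 0.51, 0.02 and 0.01 in replicates 1, 2 and 3 (0.18 ± 0.29), and 0.01 without replicate 1. The ratio Map3k8/Map3k7 was 0.40 in the second transcript table and changed sign, to -0.079, with expected counts, which are not divided by length. An exact two-sided sign-flip test of 3 libraries cannot go below p = 0.25, so no test is given for these ratios.

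**Figure D2:**
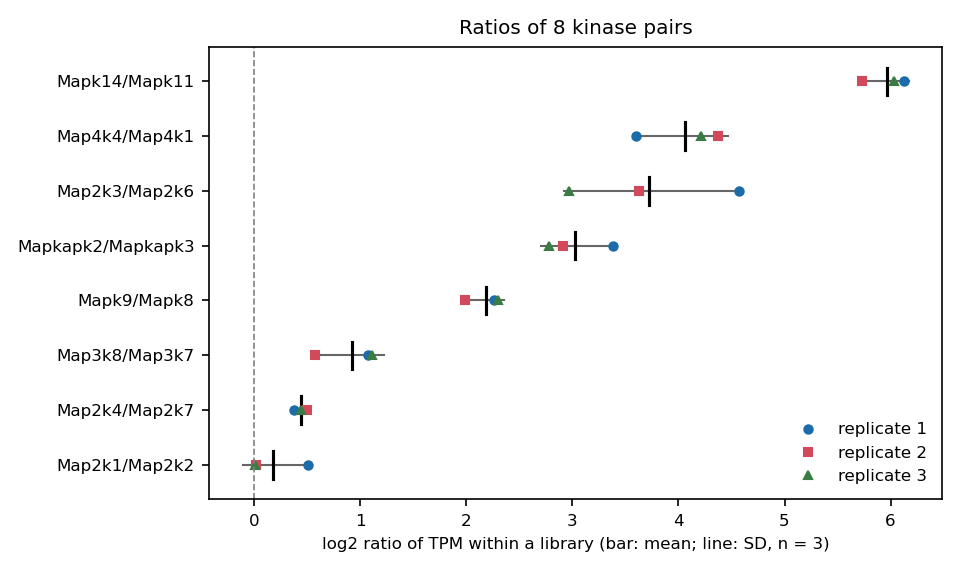
Log2 ratio of TPM within each library for 8 pairs of members; points are libraries, the vertical bar is the mean and the horizontal line the SD (n = 3). The points of Mapk14/Mapk11 lie furthest to the right and those of Map2k1/Map2k2 closest to 0.

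The spread between libraries was then set against that of other genes of like abundance. Rounded expected counts were scaled by TMM, and each gene's residual deviance around its mean was tested in edgeR at the trended dispersion. Of the 39 members with enough counts, 0 passed an adjusted p of 0.05, beside 1.96% of all 12256 genes tested. At an unadjusted p under 0.05 there were 2 members, 5.13% of those tested, against 6.88% of all genes. The median coefficient of variation of library-scaled counts (CPM) was 11.5% for the members and 11.0% for all genes tested. Between their highest and lowest library, 33 of the 39 members differed by less than 1.5 times, a count not made over all genes.

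The 2 members were Map4k3 and Map2k6. Map4k3 had 51.6, 31.8 and 29.8 CPM in replicates 1, 2 and 3 (unadjusted p = 0.00505, adjusted p = 0.166 in edgeR), and was high in replicate 1 alone. Map2k6 had 1.11, 2.75 and 3.31 CPM (unadjusted p = 0.00871, adjusted p = 0.237 in edgeR), and was low in replicate 1 alone. With a common dispersion for all genes in place of the trend, Map2k6 passed with an adjusted p of 0.0239 in edgeR, and it was the only member to do so.

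No library was uniformly high or low for the members. On the CPM scale the highest value fell in replicates 1, 2 and 3 for 16, 15 and 8 of the 39 members, against 35.1, 32.1 and 32.8% of all genes tested. The lowest value fell there for 13, 8 and 18 members, against 38.3, 30.0 and 31.7% of all genes tested. On the TPM scale the lowest value of the 31 detected members fell in replicate 3 for 20, the library in which protein-coding genes took the smallest share of TPM. After rescaling to protein-coding genes it fell in replicate 1 for 16, in replicate 2 for 3 and in replicate 3 for 12.

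**Figure D3:**
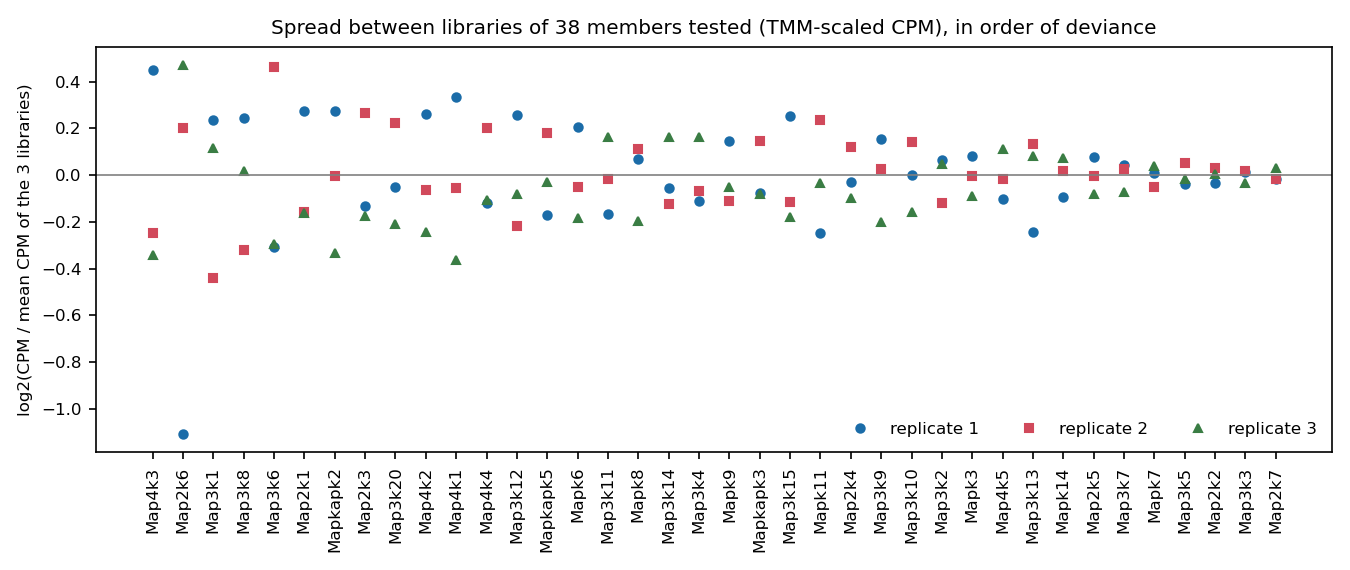
Log2 of each library's TMM-scaled CPM over the mean of the 3 libraries, for 38 of the 39 members tested, ordered by deviance from the largest on the left. Replicate 1 is high for Map4k3 and low for Map2k6, and most of the other members lie close to 0 in all 3 libraries.

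The members have 325 annotated transcripts, of which 152 are protein-coding. The leading transcript, the 1 with the highest mean share of its gene's TPM in the first transcript table, took 60% or more in 19 of the 31 detected members and 90% or more in 11. It was protein-coding in all 31, and 26 had the same leading transcript in the second transcript table, a separate quantification of the same reads. Both Mapkapk2 (Mapkapk2-201, 100 ± 0% of its TPM) and Map2k1 (Map2k1-201, 99.4 ± 0.462%) were made almost wholly from 1 transcript. In 22 members coding transcripts took 90% or more of TPM, and in 4 under 80%.

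At 5 TPM or more, 9 members had a leading transcript that changed between the quantifications or took under 60%. For Mapk14 it was Mapk14-203 at 49.2 ± 3.66% in the first table, whose coding sequence of 852 bases is shorter than the 1083 bases of the full-length form, and Mapk14-202 at 37.2 ± 11.4% in the second. Which Mapk14 transcript leads is therefore not settled by these tables.

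For Mapk9 these were Mapk9-201 at 52.8 ± 6.41% and Mapk9-204 at 41.6 ± 2.34%, for Map3k7 Map3k7-202 at 47.8 ± 0.775% and Map3k7-201 at 33.4 ± 4.31%, and for Map4k3 Map4k3-203 at 53.7 ± 5.16% and Map4k3-201 at 50.1 ± 3.38%. The same transcript led in both tables, with under 60% in the first, in these cases: Map2k7-206 at 50.8 ± 5.82%, Map4k4-213 at 42.1 ± 2.41%, Mapk7-201 at 53.7 ± 9.26% and Mapkapk5-205 at 32.6 ± 2.04%. Coding transcripts of Map3k7 took 83.3 ± 4.78% of its TPM in the first table and 52.5 ± 5.25% in the second.

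Transcripts that make the same splicing choice were summed. In Mapk14, Mapk9 and Mapk8 the choice is between a pair of exons of equal length in the kinase-coding region, of which each transcript counted here takes 1. The exons are printed on the transcript strand (mm10, GENCODE M21) because the choice sets which bases, and so which residues, the kinase carries there, and capitals mark the bases that differ within each pair.
Mapk14 exon as in Mapk14-202, chr17:28737011-28737090, plus strand: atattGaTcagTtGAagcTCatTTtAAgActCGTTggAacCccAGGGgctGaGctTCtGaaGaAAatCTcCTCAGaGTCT
Mapk14 exon as in Mapk14-201, chr17:28740680-28740759, plus strand: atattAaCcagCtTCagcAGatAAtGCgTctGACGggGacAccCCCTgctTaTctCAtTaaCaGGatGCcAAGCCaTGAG
Mapk9 exon as in Mapk9-201, chr11:49874264-49874335, plus strand: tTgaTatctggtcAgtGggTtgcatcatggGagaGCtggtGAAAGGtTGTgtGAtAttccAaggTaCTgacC
Mapk9 exon as in Mapk9-202, chr11:49873836-49873907, plus strand: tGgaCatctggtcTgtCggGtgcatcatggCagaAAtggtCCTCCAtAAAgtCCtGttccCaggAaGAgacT
Mapk8 exon as in Mapk8-203, chr14:33390242-33390313, minus strand: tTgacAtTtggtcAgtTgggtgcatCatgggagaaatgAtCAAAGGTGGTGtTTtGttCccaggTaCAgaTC
Mapk8 exon as in Mapk8-205, chr14:33390673-33390744, minus strand: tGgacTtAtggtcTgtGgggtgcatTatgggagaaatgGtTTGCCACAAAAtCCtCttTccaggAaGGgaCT
The Mapk14 exons differ at 41 of 80 bases, the Mapk9 exons at 25 of 72 and the Mapk8 exons at 27 of 72. Across the JNK genes, the exon of Mapk9-201 is 79.2% identical to that of Mapk8-203, and the exon of Mapk9-202 is 81.9% identical to that of Mapk8-205, while the other pairings reach 59.7 and 72.2%.

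In Mapk14 the exon of Mapk14-202 took 84.1, 83.9 and 85.8% in replicates 1, 2 and 3 (84.6 ± 1.06%), and 84.6 ± 0.957% in the second table. These sums include Mapk14-203, with the shorter coding sequence, so they are not shares of the full-length protein forms. Of the gene's TPM, Mapk14-203 took 49.2 ± 3.66%, Mapk14-202 32.4 ± 2.64% and Mapk14-201 15.2 ± 1.11% in the first table. In the second table these were 34.5 ± 6.61, 37.2 ± 11.4 and 13.9 ± 1.58%. In Mapk9 the exon of Mapk9-201 took 90.9, 90.0 and 94.2% (91.7 ± 2.25%) and 89.4 ± 3.05% in the second table. In Mapk8 the exon of Mapk8-203 took 75.2, 72.2 and 70.1% (72.5 ± 2.55%) and 80.3 ± 0.921% in the second table. Both JNK genes thus used mostly the like-sequenced version of the exon, Mapk9 the more so in each library.

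The C-terminal end of the JNKs is a separate choice, between a long and a short form of the protein. The long end took 57.1 ± 5.45% of Mapk9 (423 against 381 codons) and 32.5 ± 4.93% of Mapk8 (427 against 384 codons). In the second table these were 52.0 ± 2.15 and 34.6 ± 3.23%. In every library the long end was more frequent in Mapk9 than in Mapk8.

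In Map3k7 the choice is an 81-base stretch that lengthens TAK1 from 579 to 606 codons without a change of frame. It is shown because the quantifications disagree on it.
Map3k7 included stretch, chr4:31994874-31994954, plus strand: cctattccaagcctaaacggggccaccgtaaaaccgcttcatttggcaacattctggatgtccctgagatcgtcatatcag
The summed shares include noncoding transcripts, so they are not shares of the protein forms. Of the gene's TPM, coding Map3k7-201, with the stretch, took 35.5 ± 4.47% in the first table and 33.4 ± 4.31% in the second. Coding Map3k7-202, without it, took 47.8 ± 0.775 and 19.1 ± 1.99%. The main noncoding transcripts with and without it took 6.37 and 8.97% in the first table, and 18.9 and 27.1% in the second. All transcripts with the stretch summed to 40.1, 42.0 and 45.3% in replicates 1, 2 and 3 (42.5 ± 2.61%) in the first table. In the second they summed to 53.1 ± 0.605%, so the majority choice turns with the quantification. The same held on average for a 63-base stretch in Map4k3, at 45.7 ± 4.83% in the first and 52.1 ± 2.95% in the second table. A 48-base stretch in Map2k7 was included in 41.9 ± 2.24 and 46.1 ± 2.58%, below the skipped form in both.

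In Map3k20 the long form of 802 codons (ZAK alpha) took 35.4, 29.9 and 35.0% (33.4 ± 3.04%) and the short form of 454 codons (ZAK beta) the remainder. The second table gave 33.8 ± 3.16% for the long form. The short form was the more abundant in every library of both tables.

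**Figure D4:**
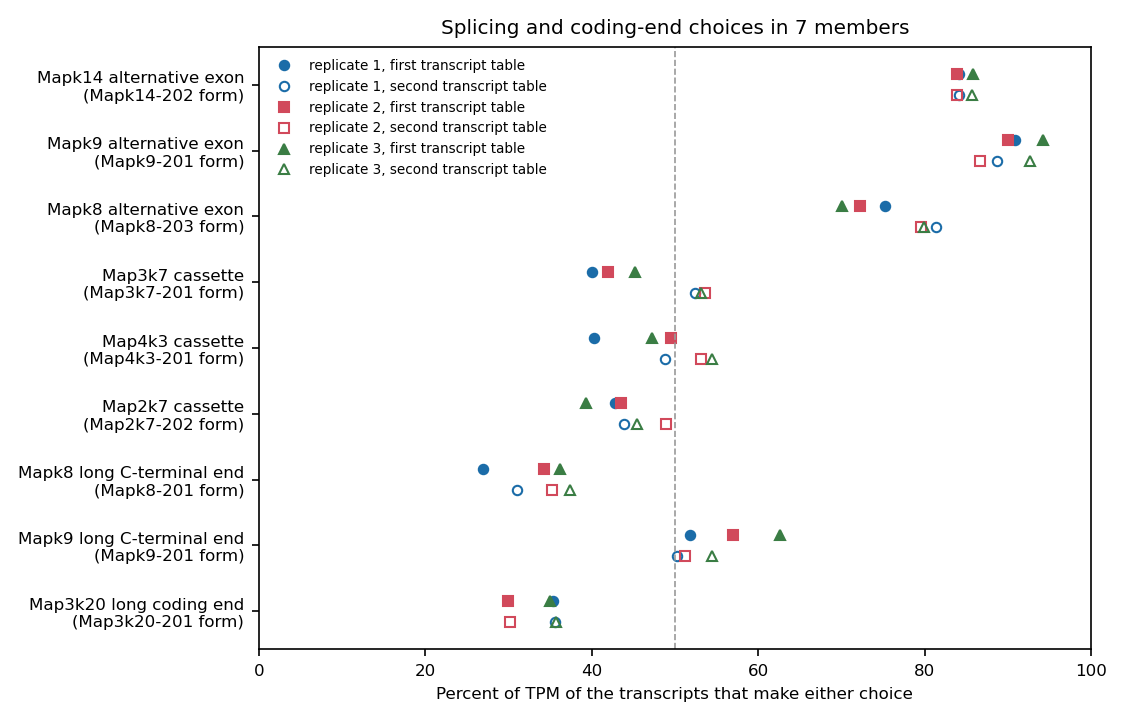
Percent of TPM taken by the named form in 9 splicing or coding-end choices of 7 members, among the transcripts that make either choice; filled symbols are the first transcript table, open symbols the second, and the dashed line marks 50%. For Map3k7 the filled symbols lie left and the open symbols right of the line, and for Mapk14 the 2 tables coincide.

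The genes around the members were taken from 11 lists of pathway genes. Of these, 69 of 92 genes were detected, beside 40.1% of all protein-coding genes. The number was 54 at a threshold of 5 TPM, 66 in the second transcript table and 75 after rescaling to protein-coding genes. Some genes named below as under 1 TPM or not detected, Rps6ka2 among them, therefore pass 1 on the rescaled values. Upstream, 8 of 10 RAS proteins and exchange factors were detected, led by the adaptor Grb2 (149.9 ± 7.05 TPM) and Nras (25.7 ± 2.92), with Rasgrp3 (0.647 ± 0.24) and Rasgrp4 (0.427 ± 0.144) under 1 TPM. Of the RAF and MOS kinases, which are MAP3Ks by function but not by symbol, 3 of 4 were detected, among them Araf (16.3 ± 1.17), and Mos had 0 counts. The level of Araf lies close to those of Map3k1 and Map3k3.

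Other Ste20-type and TAO kinases were detected in 4 of 5 cases, led by Taok3 (32.7 ± 3.25 TPM) and Taok1 (17.1 ± 1.71), with Tnik at 0.243 ± 0.0907. Of a list of MAP3K partners that also holds the pseudokinase genes Trib1, Trib2 and Trib3, 12 of 13 genes were detected. They were led by Nfkb1 (42.3 ± 7.0), which encodes the p105 protein that holds TPL2, and Tab2 (29.3 ± 3.42), a TAK1 partner. The pseudokinase gene Trib2 (0.00667 ± 0.0115) was the exception. The Nfkb1 transcript was above the Map3k8 transcript in all 3 libraries, at 45.1, 47.5 and 34.3 TPM. Protein levels were not measured here.

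Scaffolds were detected in 7 of 9 cases, led by Arrb2 (93.8 ± 4.24 TPM) and Lamtor1 (77.0 ± 2.06); the JNK scaffold Mapk8ip1 stood at 0.05 ± 0.0265 and Mapk8ip2 had 0 counts. Both KSR scaffolds of the RAF-MEK-ERK module were under 1 TPM, Ksr1 at 0.387 ± 0.0666 and Ksr2 at 0.0567 ± 0.00577.

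Downstream, 5 of 8 RSK, MSK and MNK kinases were detected, led by Rps6ka1 (23.7 ± 1.46 TPM) and Mknk2 (22.4 ± 0.828). Rps6ka2 (0.937 ± 0.245) and Rps6ka5 (0.827 ± 0.165) had means under 1 TPM and Rps6ka6 had 0 counts. All 6 mRNA-binding targets of p38 and MK2 were detected, led by Zfp36 (tristetraprolin) and Zfp36l1 (55.2 ± 7.69). Zfp36 stood at 235, 112 and 109 TPM in replicates 1, 2 and 3 (152 ± 72.1), high in replicate 1. That library was also the highest in TPM for 14 of the 31 detected members, Mapkapk2 among them, a count not made over all genes. Replicate 1 was also the library in which protein-coding genes took the largest share of TPM. After rescaling to protein-coding genes it was the highest for 6 of the 31. A link between Zfp36 and Mapkapk2 was not tested.

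Nuclear targets were detected in 15 of 17 cases, led by Junb (140.3 ± 27.8 TPM) and Egr1 (76.1 ± 28.8), with Fosb (0.577 ± 0.690) and Fosl1 (0.0167 ± 0.0153) under 1 TPM on average. Among the phosphatases that switch MAPKs off, 7 of 11 were detected. Dusp1 stood at 62.1, 34.8 and 25.8 TPM (40.9 ± 18.9) and Dusp2 at 30.0 ± 4.87, while Dusp10 (0.510 ± 0.0529), Dusp14 (0.24 ± 0.151) and Dusp9 (0.04 ± 0.0265) were under 1 TPM and Dusp8 (1.13 ± 0.446) passed it in some libraries. Of the Sprouty and Spred inhibitors of RAS-ERK signalling, Spred1 (40.3 ± 13.1) and Spred2 (5.48 ± 1.11) were detected, 2 of 7. Spry2 (0.803 ± 0.184), Spry1 (0.347 ± 0.162), Spred3 (0.157 ± 0.0473), Spry3 (0.04 ± 0.0361) and Spry4 (0.00333 ± 0.00577) were not.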

How the data were processed

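Each of the 3 libraries has a gene table and 2 transcript tables. Per the deposited README files, they were made on mm10 with GENCODE M21, the gene table and first transcript table from transcriptome alignments and the second from FASTQ files, with no program named in the sources used here. The expected counts are estimated by the authors' programs and not normalized, per the file headers. The authors also deposited TPM, which corrects for effective length and sums to the same total per library. The percent of a gene's TPM per transcript comes from the deposited first transcript table, and the posterior SD of a count, in counts, from the deposited gene and first transcript tables (at most 0.400% of the count for detected members). Control sequences without a gene name (0.0959 to 0.227% of counts) were left out.

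Members were found by symbol and matched by gene ID. Members, lists and the rule for named genes were chosen with earlier results of these data known. Results for 1 member and 1 list gene, which stay in the counts, are not reported here. The rule gives every other member by name, per-library values for the 3 highest of each step, for pair members at 1 TPM or more and for those passing 1 TPM in some libraries, and for each list the 2 highest genes and those under 1 TPM. Splicing choices, and the per-library values of Nfkb1, Zfp36 and Dusp1, were chosen after values were seen. The test of variability rounded the expected counts and used TMM, filterByExpr and Benjamini-Hochberg adjustment (edgeR 4.0.16 in R 4.3.3), after a run on simulated data. Alternatives were other thresholds, scalings (DESeq2 1.42.0 size factors), dispersions, the second table and leaving out each library. Sequences and splice forms were read from the GENCODE M21 annotation.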

Additional observations from a re-analysis of the deposited data

How the results depend on the processing

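The number of detected members ran from 22 at a threshold of 5 TPM to 37 after rescaling to protein-coding genes, around 31. Rescaling added Mapk11, Map2k6, Map3k6, Map3k9, Map3k12 and Map4k1. At 1 TPM the number was 28 in the second transcript table, where TPM values ran lower (for Mapkapk2 a mean of 59.2 against 110.1). With both rescaled to protein-coding genes, the median ratio of the second to the first over the detected members was 1.00. The members passing the variability test numbered 0 under all alternatives run except a common dispersion, which gave 1 (Map2k6). The JNK share of MAPK TPM was 12.5% in the second transcript table. By expected counts, which are not divided by length, the log2 ratio Map3k8/Map3k7 (-0.079) changed sign, and Mapk14/Mapk11 was 6.42, Mapk9/Mapk8 2.39, Map2k1/Map2k2 0.73, Map2k4/Map2k7 0.58 and Map4k4/Map4k1 4.92; counts grow with transcript length. With a pseudocount of 1 TPM, which pulls low genes up, Mapk14/Mapk11 was 4.21, Mapk9/Mapk8 1.89, Map2k3/Map2k6 2.58 and Map4k4/Map4k1 3.03. In the second transcript table Map2k4/Map2k7 was 0.67 and Map3k8/Map3k7 0.40; the cause was not tested. Of the 9 splicing shares, 5 moved by more than 1 SD in that table, an alternative chosen after seeing the data. Leaving out 1 library changed no direction of a ratio and moved no splicing share by more than 1 SD. No paired analysis was possible because the 3 libraries form 1 group. With 3 libraries and no control, levels cannot be tied to Lipid A, and members with fewer than about 3 counts in a library cannot be told from 0.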
